A study of Mus musculus with 4 samples.

Results

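The TGFβ response of each gene was compared between a pair of NMuMG lines, and the subject here is the difference between the responses, gene by gene and pathway by pathway. NMuMG is an epithelial line from mouse mammary gland that turns mesenchymal when given TGFβ. For each gene the log2 ratio of 24 h to 0 h of TGFβ was taken in each line, and the ratio in the line with the fusion protein minus the ratio in the control line is called the difference of responses. A negative difference means a lower ratio in the fusion line. Genes were kept when they averaged at least 1 CPM (counts relative to library size) over the 4 libraries, with the rows of the transgene constructs left out: 11777 of 21971 genes, or 53.6%, met this rule. Just inside the threshold lay Hoxa5, with 49 and 45 counts in the control line and 38 and 35 in the fusion line, and just outside it 4930432K21Rik, with 39 and 43 counts in each line.

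TGFβ binds a pair of serine/threonine kinase receptors, which phosphorylate SMAD2 and SMAD3. These enter the nucleus with SMAD4 and act with partners such as AP-1 on genes of matrix, protease inhibition and migration, and they also switch on SMAD7, which inhibits the receptors. In epithelial cells the programme raises Snail and Zeb repressors, lowers junction genes such as E-cadherin and stops the cell cycle, and the whole change is called epithelial-to-mesenchymal transition (EMT).

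Each of the 4 groups held 1 library of ribosome-depleted total RNA. The control line expressed TRF1ΔN, a mutated form of human TRF1, the protein that binds telomeric repeats. The fusion line expressed Vp16-TRF1ΔN, the same protein joined to the transcription activation domain of Vp16, a viral protein, and per the series description it overproduces TERRA-like RNA, TERRA being the noncoding RNA made from telomeres. Both lines carry a TRF1ΔN protein and both were grown in medium with serum and insulin. Both were sampled untreated and with 5 ng/ml TGFβ given for 24 h, and the series description asks how the EMT signature differs when TERRA-like RNA is high. The labels give no untreated library at 24 h, so TGFβ and time in culture cannot be told apart, and they do not say whether a line is 1 clone or a pool. With 1 library per group there were no replicates, no test could be run, and each value below is that of single libraries. Intervals given are 95% counting intervals, which cover counting error only, and a value followed by a range is a difference of responses with its interval.

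The libraries held between 35423556 and 46001039 counts, the fewest in the treated fusion line. Mitochondrially encoded genes took 10.2% and 13.3% of the counts at 0 h and 24 h in the control line, and 11.4% and 15.7% in the fusion line. The TRF1DN construct row stood at 39.1 and 185 CPM in the control line but at 2.85 and 4.64 CPM in the fusion line, while the VP16 row had 0 and 1 counts against 15 and 27. The difference of responses of the TRF1DN row was -1.55 (-1.90 to -1.21). Of the vector rows, Vec_part1 had -1.24 (-1.94 to -0.54) and Vec_part2, at 312 and 388 CPM in the control line and 129 and 127 in the fusion line, -0.33 (-0.40 to -0.27). What stretch of the construct each row covers is not described in the sources used here, so the level of the whole transgene transcript cannot be read from them, and the part it has in the results below was not tested. Summed markers of luminal cells stood between 6081 and 6360 CPM in the 4 libraries, and 7 of 16 listed genes reached a mean of 1 CPM. Krt8 and Krt18 were high, while Krt19, described below, was far lower after TGFβ in both lines. The milk gene Csn3 had 3 counts or fewer, and Csn2, Kit, Lalba, Pgr and Wap were not among the genes counted. The sums were 8.08 to 56.2 CPM for basal markers (3 of 11 listed genes reached a mean of 1 CPM), 3.67 to 6.01 for immune (1 of 10), 38.8 to 121 for endothelial (2 of 9), 247 to 534 for fibroblast (3 of 9) and 15.1 to 23.4 for adipocyte markers (1 of 7). Of the basal, endothelial, fibroblast and adipocyte markers, Myh11, Pecam1, Tek, Col3a1, Dcn, Adipoq and Fabp4 had at most 3 counts in any library. Other low markers moved after TGFβ in either direction. Csf1r had 1 and 101 counts in the control line and 2 and 21 in the fusion line, Cdh5 4 and 50 against 5 and 24, and Acta2 1 and 75 against 1 and 33. Krt5 had 21 and 1 against 15 and 1, and Lyz2 10 and 0 against 9 and 0. The endothelial and basal sums were lower and the fibroblast sum, nearly all of it Gsn, was higher after TGFβ in both lines.

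Most genes had similar ratios in the lines, but 8003 of the 11777 averaged under 1.5-fold after TGFβ. Where the lines parted, the fusion line usually responded less. The difference of responses had a median of 0.0026 on the log2 scale, its quartiles were -0.13 and 0.15, and 10710 genes (90.9%) lay within 1.5-fold of equal response. It was at least 2-fold with an interval excluding 0 in 213 genes with a higher ratio (1.81% of those measured) and in 109 with a lower ratio (0.926%) in the fusion line. At 1.5-fold the counts were 529 higher (4.49%) and 344 lower (2.92%). Of the 213 genes, 184 were lower after TGFβ and kept more of their level in the fusion line, 8 were higher after TGFβ and more so in the fusion line, and 21 averaged under 1.5-fold. Of the 109, 81 were higher after TGFβ and reached less in the fusion line, 11 were lower and more so in the fusion line, and 17 averaged under 1.5-fold.

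Genes were then sorted by the size of the response. A gene counted as responding when the mean of its log2 ratios in the lines was at least 1.5-fold, which 3774 genes met. Among these the response was weaker in the fusion line by at least 1.5-fold in 581 genes (15.4%), close in 2017 (53.4%) and stronger in 86 (2.28%). Close means that the whole counting interval of the difference lay within 1.5-fold, and the remaining 1090 were undecided. Among the 882 genes higher by at least 2-fold on average, the log2 response of the fusion line was 85.8% of that of the control line at the median (quartiles 75.2% to 98.7%), and it was the smaller one in 681 genes, or 77.2%. Among the 1166 genes lower by at least 2-fold the median was 84.8% (67.8% to 107%), with 795 genes, or 68.2%, smaller in the fusion line. For higher genes the median share hardly varied with the size of the response, from 86.8% at 1.5 to 2-fold to 84.6% above 8-fold. For lower genes it was 86.3% at 1.5 to 2-fold, 90.01% at 2 to 4-fold and 77.4% above 4-fold, both at 4 to 8-fold and beyond. Because the cut-off for weaker is a fixed 1.5-fold, its share grows with the size of the response even at a constant relative response. The share of weaker responses was larger among larger responses. It was 4.88%, 11.4%, 21.3% and 34.8% at 1.5 to 2-fold, 2 to 4-fold, 4 to 8-fold and above 8-fold for higher genes, and 6.55%, 19.6%, 45.1% and 50.9% for lower genes, and the shares of lists below can be read beside these. In bulk RNA, fewer cells that respond and a smaller response per cell cannot be told apart.

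**Figure D1:**
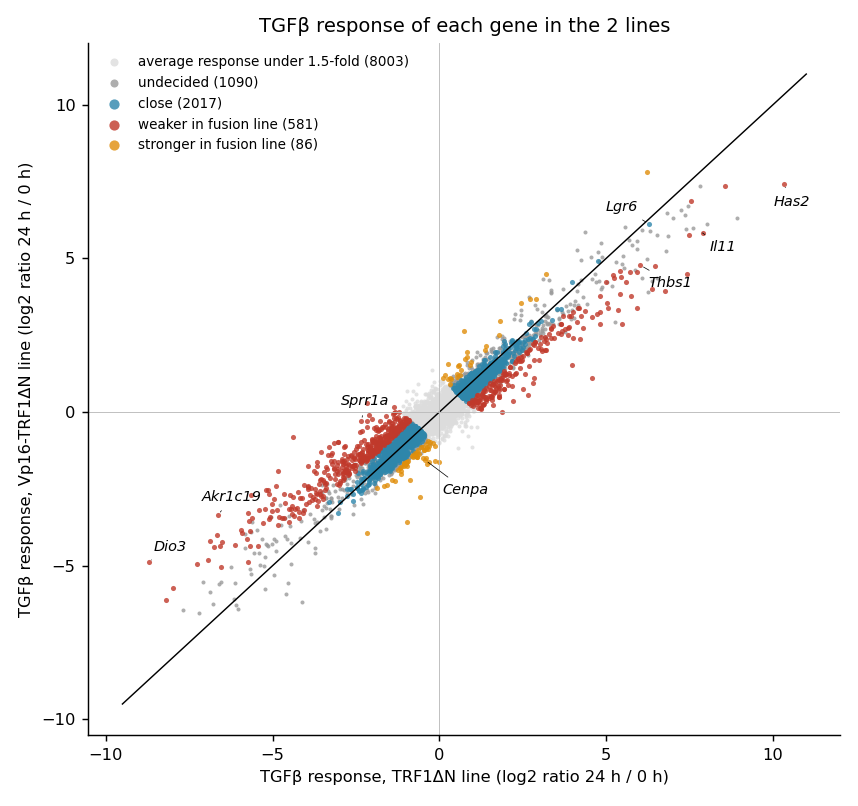
Each point is 1 gene, with its log2 ratio of 24 h to 0 h in the TRF1ΔN line on the x axis and in the Vp16-TRF1ΔN line on the y axis. The black line marks equal responses, and colours mark 581 weaker, 2017 close, 86 stronger and 1090 undecided genes and 8003 whose average response was under 1.5-fold. Weaker genes lie below the line on the right and above it on the left.

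The lines started much alike and parted after TGFβ. Before TGFβ they were at least 2-fold apart, with an exact counting interval excluding 1, in 70 genes (0.594%), and at 24 h in 388 (3.29%). Of the 213 genes with a higher ratio in the fusion line, 162 were apart only at 24 h, 7 only at 0 h, 2 at both times and 42 at neither. Of the 109 with a lower ratio, 57 were apart only at 24 h, 6 only at 0 h, 2 at both and 44 at neither. Il11, at 0.651 CPM in the untreated control library and 0.255 in the untreated fusion library, and Krt7 were the pair apart at both times among the 109, and Lrrc32 and Wfdc2 among the 213.

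Genes higher after TGFβ in both lines, but less so in the fusion line, included some of its best known targets. Thbs1, the gene of thrombospondin 1 (chr2:118111876-118127133, build mm10, as are all gene positions here), stood at 28.0 CPM at 0 h and 1828 at 24 h in the control line, and at 30.5 and 839.6 in the fusion line. Ccn2, the gene of connective tissue growth factor (chr10:24595442-24598683), went from 77.5 to 611 CPM in the control line and from 78.7 to 255 CPM in the fusion line. The untreated libraries were near each other for both genes and the treated control library was the highest of the 4 in each. Their differences of responses were -1.248 (-1.36 to -1.14) and -1.28 (-1.36 to -1.20).

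Has2, the gene of hyaluronan synthase 2 (chr15:56665627-56694539), had the lowest difference among genes averaging 5 CPM or more. Its counts were 4 at 0 h and 7101 at 24 h in the control line and 6 and 1098 in the fusion line, or 169 against 32.0 CPM at 24 h. The difference was -2.90 (-4.41 to -1.39), the wide interval coming from the few counts at 0 h, and at 24 h alone Has2 was 5.27-fold (4.94 to 5.62) lower in the fusion line. The cytokine gene Il11 (chr7:4772373-4782859) went from 0.651 to 166 CPM in the control line and from 0.255 to 17.2 CPM in the fusion line, a difference of -2.06 (-2.99 to -1.13). Inhba, which encodes the activin A subunit, went from 12.7 to 185 CPM in the control line and from 11.5 to 66.2 CPM in the fusion line, a difference of -1.34 (-1.53 to -1.16). All 3 were barely expressed or low before treatment and were highest in the treated control library.

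Other genes were among the lowest differences at 5 CPM or more. Relt, a receptor of the TNF receptor family, went from 3.78 to 21.5 CPM in the control line and from 2.97 to 4.99 CPM in the fusion line, with a difference of -1.75 (-2.15 to -1.35) and a log2 response in the fusion line 29.7% of that in the control line. Wnt9a, a Wnt ligand, had -1.69 (-2.89 to -0.49), Stab1, a scavenger receptor, -1.57 (-2.36 to -0.78), and Castor1, the arginine sensor of mTORC1, -1.35 (-2.31 to -0.39). The collagen genes Col1a1 and Col5a3 had -1.46 (-2.10 to -0.81) and -1.22 (-1.86 to -0.57), the LIM protein gene Lmcd1 -1.35 (-1.85 to -0.85) and the intermediate filament gene Synm -1.34 (-1.81 to -0.87). Kif26b, of the kinesin family, had 3 and 831 counts in the control line and 4 and 262 in the fusion line. Its level at 24 h was 2.58-fold (2.24 to 2.98) lower in the fusion line.

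**Figure D2:**
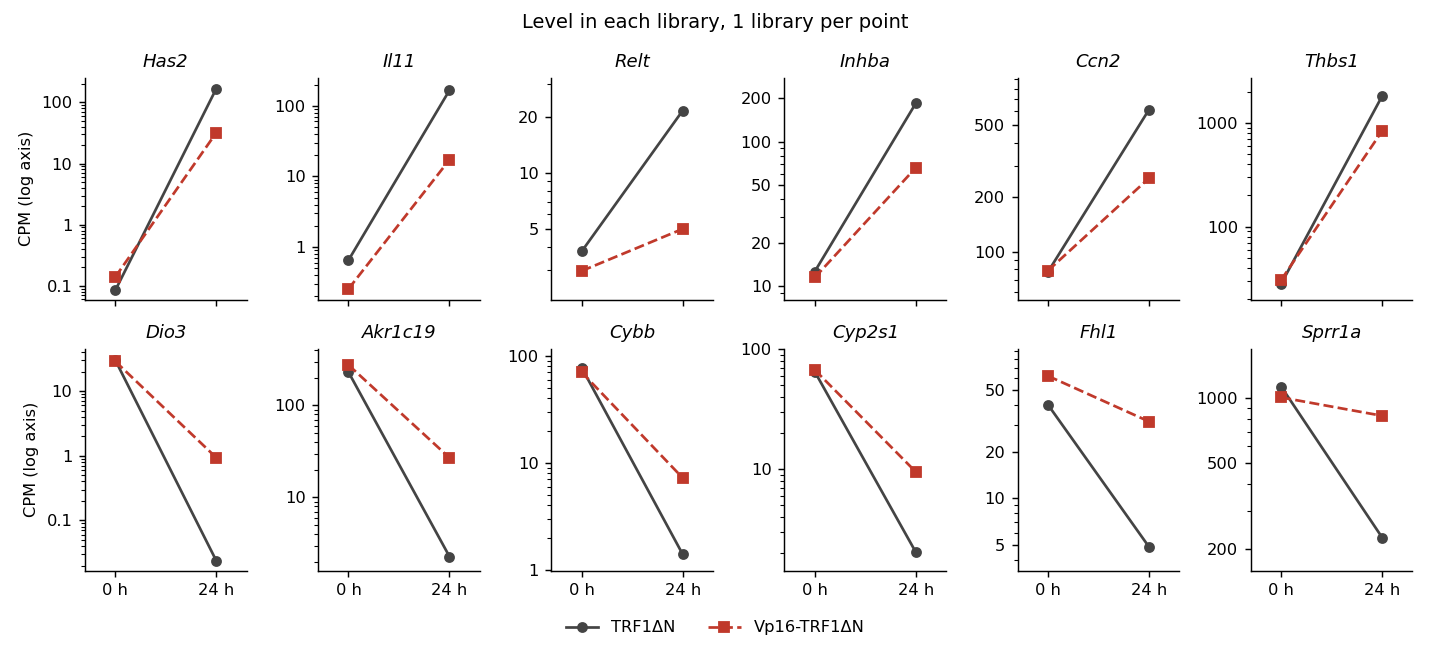
CPM in each of the 4 libraries, on a log axis, for 6 genes with a low and 6 with a high difference of responses. Circles are the TRF1ΔN line and squares the Vp16-TRF1ΔN line, 1 library each. Levels of the lines nearly coincide at 0 h for most of these genes and part at 24 h, with Thbs1 at 1828 and 839.6 CPM and Akr1c19 at 2.28 and 26.99 CPM.

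Many genes were lower after TGFβ in both lines but less so in the fusion line. Akr1c19, an aldo-keto reductase gene (chr13:4228700-4252843), stood at 230.5 CPM at 0 h and 2.28 at 24 h in the control line, and at 275 and 26.99 in the fusion line, a difference of 3.28 (2.98 to 3.58). Cybb, which encodes the NADPH oxidase subunit gp91phox (chrX:9435252-9487771), went from 77.5 to 1.40 CPM in the control line and from 70.2 to 7.24 CPM in the fusion line, a difference of 2.47 (2.06 to 2.88). Cyp2s1, a cytochrome P450 gene, went from 64.9 to 2.04 CPM in the control line and from 67.2 to 9.51 CPM in the fusion line, a difference of 2.14 (1.80 to 2.49). At 24 h the control line held the least of each transcript, while the untreated libraries were near each other.

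Sprr1a and Fhl1 kept far more of their starting level in the fusion line. Sprr1a, a cornified envelope gene (chr3:92483952-92485895), stood at 1137 CPM at 0 h and 225 at 24 h in the control line, and at 1012 and 831 in the fusion line, a difference of 2.05 (2.01 to 2.09). Fhl1, which encodes a LIM domain protein, went from 40.3 to 4.85 CPM in the control line and from 61.9 to 31.4 CPM in the fusion line, a difference of 2.06 (1.83 to 2.30). Others in this group were the methyltransferase-like gene Mettl7b at 2.66 (1.76 to 3.56), the kinesin gene Kif12 at 2.33 (1.06 to 3.60), the meprin protease gene Mep1a at 2.29 (1.42 to 3.16), the progestin receptor gene Paqr5 at 2.09 (1.02 to 3.17) and Aspa, which encodes aspartoacylase, at 2.02 (1.37 to 2.67).

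Several of the highest differences rest on very few counts in the treated control library, and for these the counts are given. Dio3, the enzyme that inactivates thyroid hormone, had 1434 and 1 counts in the control line and 1243 and 32 in the fusion line, a level at 24 h 39.3-fold (6.57 to 1600.4) higher in the fusion line. Ranbp3l had 402 and 1 against 543 and 22 counts, and the glucuronosyltransferase gene Ugt2b36 413 and 1 against 589 and 15. Sptssb, a subunit of serine palmitoyltransferase, had 1669 and 3 against 2510 and 27 counts, 11.1-fold (3.40 to 56.9) higher in the fusion line at 24 h. Smim6 had 573 and 0 against 645 and 8 counts, so at 24 h it was at least 3.28-fold higher in the fusion line, with a count of 0 taken as 3 counts. A library with 3 counts or fewer occurred in 16 of the 213 genes and 8 of the 109, and for them the log2 difference depends on the count of 2 added to each value.

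Promoter sequence was looked at because AP-1 acts with SMADs at many TGFβ targets. The RefSeq promoter table (GRCm38.p6, windows from 250 bases before to 50 after a transcript start, 300 bases in all) had an entry for 162 of the 213 genes and 62 of the 109. Below 80% of members, a comparison of motif shares is void, and none is given. Shown are windows of genes past 2-fold, averaging 5 CPM or more, whose first listed window holds the AP-1 motif TGAGTCA on either strand. They are the 2 lowest and the 2 highest by difference of responses, chosen after the values were seen. Genes of 1 chromosome were left out of this choice, and further windows of a gene were not searched. Capitals mark the motif, which 5.20% of all 32851 windows hold, and a match is a description of the letters only. Lif (chr11:4257318-4257617, plus strand) and Acox2 (chr14:8258970-8259269, minus strand) had lower ratios in the fusion line, and Sprr1a (chr3:92485832-92486131, minus strand) and Cyp3a13 (chr5:137921570-137921869, minus strand) higher ones.
Lif: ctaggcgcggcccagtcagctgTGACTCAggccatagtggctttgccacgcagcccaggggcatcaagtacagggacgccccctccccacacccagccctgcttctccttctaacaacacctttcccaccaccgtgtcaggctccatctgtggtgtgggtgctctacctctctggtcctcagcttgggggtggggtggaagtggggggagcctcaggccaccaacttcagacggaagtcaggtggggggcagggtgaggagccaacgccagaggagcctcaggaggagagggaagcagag
Acox2: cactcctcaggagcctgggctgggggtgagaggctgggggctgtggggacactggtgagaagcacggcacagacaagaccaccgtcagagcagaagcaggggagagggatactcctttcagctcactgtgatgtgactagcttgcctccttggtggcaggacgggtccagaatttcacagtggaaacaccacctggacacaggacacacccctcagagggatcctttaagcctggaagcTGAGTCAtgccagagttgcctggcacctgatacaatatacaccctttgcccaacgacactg
Sprr1a: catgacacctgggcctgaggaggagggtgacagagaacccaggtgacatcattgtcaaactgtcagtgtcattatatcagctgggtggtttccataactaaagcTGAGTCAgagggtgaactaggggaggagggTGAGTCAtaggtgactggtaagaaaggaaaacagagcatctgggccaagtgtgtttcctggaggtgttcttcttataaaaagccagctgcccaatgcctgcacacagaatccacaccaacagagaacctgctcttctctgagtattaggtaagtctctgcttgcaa
Cyp3a13: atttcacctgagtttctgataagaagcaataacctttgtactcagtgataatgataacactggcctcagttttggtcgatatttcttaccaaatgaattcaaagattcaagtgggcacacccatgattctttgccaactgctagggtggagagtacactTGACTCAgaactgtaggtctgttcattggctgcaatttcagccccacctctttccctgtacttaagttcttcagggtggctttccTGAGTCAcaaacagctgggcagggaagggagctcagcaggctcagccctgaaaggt
Lif, a cytokine gene, went from 17.0 to 111 CPM in the control line and from 15.3 to 43.7 CPM in the fusion line, a difference of -1.19 (-1.36 to -1.02). Acox2, a peroxisomal oxidase gene, went from 8.71 to 30.1 CPM in the control line and from 13.9 to 23.8 CPM in the fusion line, a difference of -1.01 (-1.23 to -0.79). Cyp3a13, a cytochrome P450 gene, went from 17.5 to 1.83 CPM in the control line and from 20.5 to 8.11 CPM in the fusion line, a difference of 1.89 (1.504 to 2.27). The windows of Sprr1a and Cyp3a13 hold 2 copies each of the motif, and those of Lif and Acox2 1 each. All were picked for holding the motif, so no pattern can be read from the numbers of copies.

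Gene lists were compared next, each beside all genes, for which the median difference was 0.0026 and 15.4% of responding genes were weaker. The list of TGFβ and SMAD targets had the lowest median among lists with at least 5 measured genes. Its 32 measured genes had median log2 responses of 2.67 in the control line, 2.004 in the fusion line, and a median difference of -0.54, with 14 past 1.5-fold lower and 0 higher. Of the 30 that responded, all upward, 14 were weaker (46.7%), 10 close, 6 undecided and 0 stronger. Signed by the direction of the response, the list's median difference was -0.58, beside -0.36 and -0.68 over all genes higher by 4 to 8-fold and by more than 8-fold, of which 21.3% and 34.8% were weaker. Besides the genes above, Bhlhe40, Spsb1 and Itga5, the fibronectin receptor subunit, had -1.08 (-1.19 to -0.98), -0.77 (-1.03 to -0.51) and -0.72 (-0.85 to -0.59). Close to equal were Fn1, fibronectin (-0.30), Pmepa1, an inhibitor of SMAD signalling (-0.25), Skil (-0.45), Timp1 (-0.42), Junb (-0.40), Cdkn2b, the inhibitor p15 (-0.33), and Klf10 (0.022). At the top of the list stood Angptl4 at 0.23 (0.045 to 0.42) and Tgfbi at 0.37 (-0.44 to 1.19).

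Among the genes of the pathway's own machinery, the large differences were at ligands and their binding proteins. Of 18 measured ligand, receptor and latency genes 4 were past 1.5-fold lower and 2 higher, with a median difference of -0.19. Fstl3, which binds activin, had 11 and 279 counts in the control line and 10 and 19 in the fusion line, with a difference of -3.48 (-4.77 to -2.18), the lowest of all measured genes. Inhba, Ltbp2 (-1.19, -1.59 to -0.78) and the ligand gene Tgfb3 (-1.07, -1.40 to -0.74) were the other weaker responders. Lrrc32, which holds latent TGFβ on the cell surface, started lower in the fusion line (7.16 against 0.905 CPM) and reached 66.5 and 21.3 CPM, a stronger response (1.28, 0.80 to 1.76). Inhbb, another activin subunit, went from 6.57 to 3.35 CPM in the control line and from 3.60 to 5.84 CPM in the fusion line, a difference of 1.65 (1.24 to 2.07). Tgfb1 (-0.10) was close, and Tgfbr2, the type II receptor (-0.022 in the control line and 0.43 in the fusion line), averaged under 1.5-fold.

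Among 20 measured Smads and feedback genes 1 was past 1.5-fold lower and 0 higher, with a median of -0.084. That gene was Ldlrad4, an inhibitor of SMAD activation, at -0.66 (-0.92 to -0.40). Of the 7 that responded 5 were close, among them the repressors Ski (-0.37) and Skil and the ubiquitin ligase gene Nedd4l (0.29). Smad7 went from 43.8 to 135 CPM in the control line and from 44.7 to 96.8 CPM in the fusion line, a difference of -0.51 (-0.62 to -0.40) that was undecided. Smad3 and Smad6 averaged under 1.5-fold, with differences of 0.19 and 0.21. In the list of Id genes and BMP signalling 3 of 12 were past 1.5-fold higher and 0 lower. The median was 0.19, or -0.14 with no filter on low counts. Id2, an inhibitor of basic helix-loop-helix factors, went from 352 to 39.7 CPM in the control line and from 375 to 103 CPM in the fusion line, a weaker response (1.28, 1.19 to 1.37), while Id1 was close (0.45, 0.33 to 0.58). The ligand gene Bmp2 and the target gene Hey1 were the others, described below with genes that went opposite ways.

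**Figure D3:**
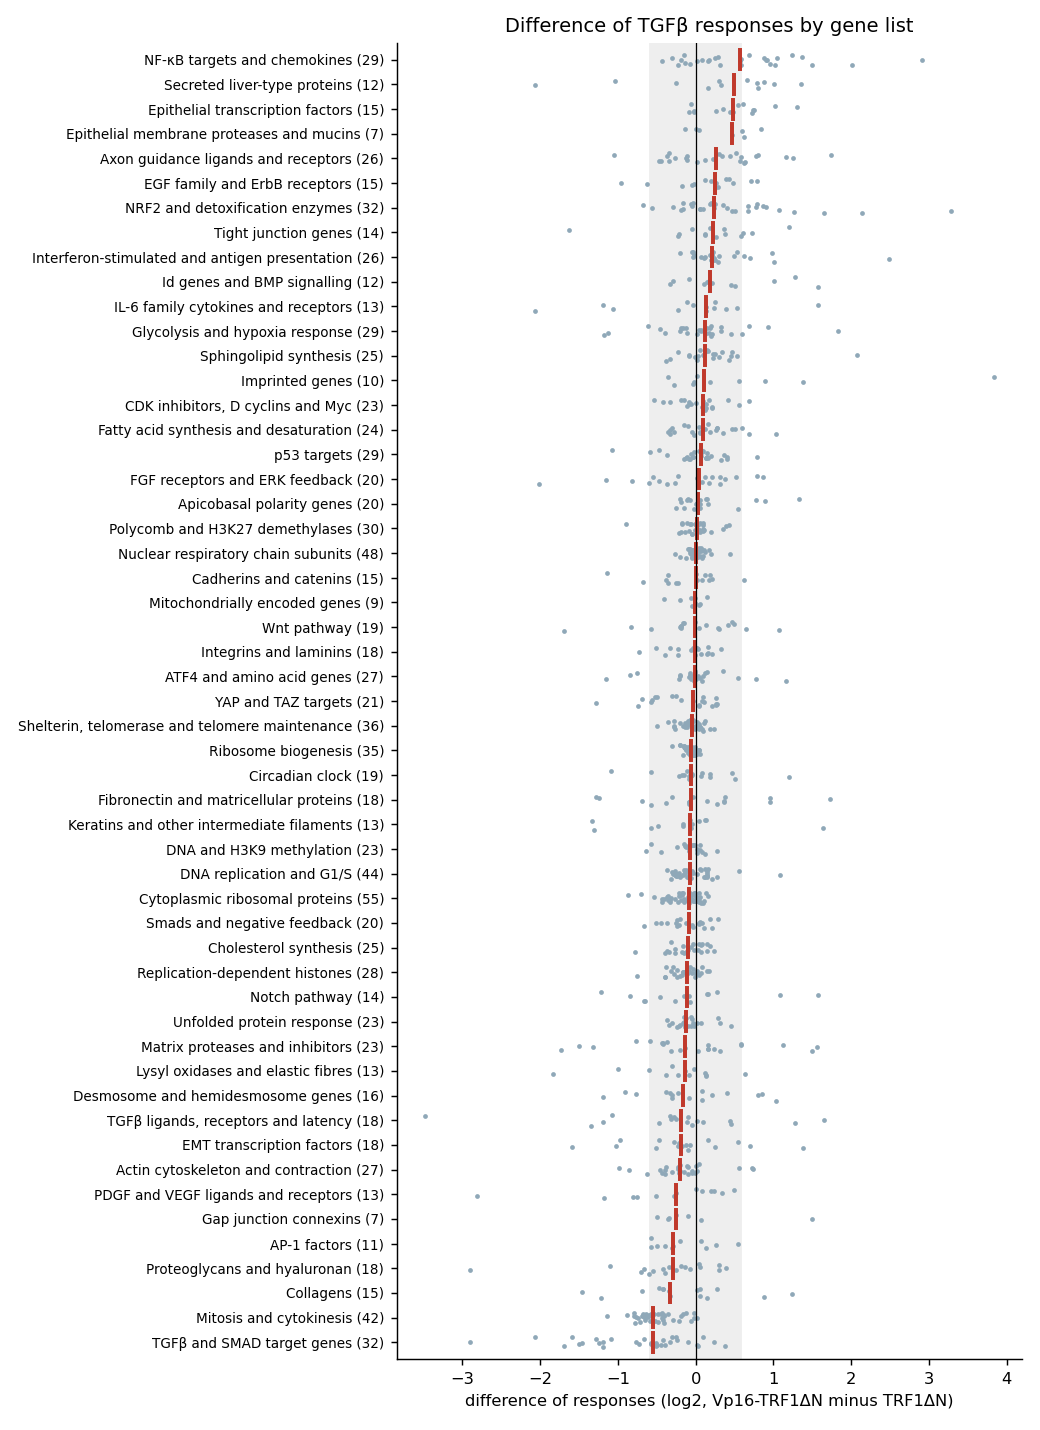
Difference of responses on the log2 scale, fusion line minus control line, for each measured member (points, spread vertically for visibility) of 53 gene lists, with the number of measured members in brackets. Red bars are medians and the grey band is 1.5-fold either way. TGFβ and SMAD targets and mitosis genes lie lowest, both with medians of -0.54, and NF-κB targets highest, at 0.58.

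The EMT transcription factors did not respond as 1 group. Snai1, which encodes Snail (chr2:167538195-167542814), went from 0.588 to 12.6 CPM in the control line and from 0.696 to 4.87 CPM in the fusion line, a difference of -1.59 (-2.35 to -0.83) that was the lowest of the list. Sox9 (-1.02, -1.21 to -0.82) and Runx1 (-0.97, -1.09 to -0.85) were weaker too. Zeb1, from 37.6 to 157 CPM in the control line and from 39.0 to 139 CPM in the fusion line, and Zeb2, from 28.5 to 95.7 CPM in the control line and from 28.2 to 89.96 CPM in the fusion line, were close, with differences of -0.22 (-0.33 to -0.11) and -0.075 (-0.21 to 0.056). Snai2, which encodes Slug, stood at -0.51 with an interval reaching 0.099 and was undecided. Twist2 was lower after TGFβ and less so in the fusion line (0.70, 0.35 to 1.05). Prrx1 went from 2.73 to 1.33 CPM in the control line and from 2.04 to 2.66 CPM in the fusion line, a difference of 1.38 (0.77 to 1.99). Over the 18 measured factors 3 were past 1.5-fold lower and 2 higher, with a median of -0.19, and of 14 responders 4 were weaker, 6 close, 4 undecided and 0 stronger.

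Several epithelial transcription factor genes kept more of their transcripts in the fusion line. Hnf4a, a nuclear receptor gene of liver and gut epithelium, went from 446 to 92.0 CPM in the control line and from 488 to 169 CPM in the fusion line, a difference of 0.75 (0.68 to 0.81). Foxa2, a forkhead factor gene, went from 65.2 to 11.4 CPM in the control line and from 78.5 to 34.0 CPM in the fusion line, a difference of 1.302 (1.13 to 1.47). Cebpa went from 44.0 to 3.66 CPM in the control line and from 62.8 to 10.7 CPM in the fusion line, a difference of 1.02 (0.73 to 1.2996), and the Ets factor gene Ehf had 0.73 (0.61 to 0.86). The treated control library was the lowest of the 4 for each of these genes. Of 15 measured factors 6 were past 1.5-fold higher and 0 lower, and 6 of 10 responders were weaker (60.0%). The median difference was 0.48, or 0.30 with no filter on low counts. Elf3 was close (-0.079), and Foxa1 and Esrp2, a splicing regulator, averaged under 1.5-fold (-0.061 and -0.026). Of 11 AP-1 genes 0 were past 1.5-fold either way, with a median of -0.28, from -0.58 for Jun to 0.55 for Fosl1, and 3 of 8 responders were close and 5 undecided.

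Several junction and polarity genes that were lower after TGFβ stood higher in the treated fusion library. Cdh1, which encodes E-cadherin (chr8:106603351-106670246), stood at 366 CPM at 0 h and 107 at 24 h in the control line, and at 368 and 166 in the fusion line, a weaker response (0.62, 0.55 to 0.68). Cdh2, which encodes N-cadherin, was close (0.084, 0.0022 to 0.17), at 189.8 and 197 CPM after TGFβ. The adhesion gene Nectin1 went the other way, from 6.78 to 60.9 CPM in the control line and from 6.59 to 26.8 CPM in the fusion line, a difference of -1.14 (-1.40 to -0.89). Of 15 cadherin and catenin genes 1 was past 1.5-fold higher, Cdh1, and 1 lower, Nectin1, and 8 of 11 responders were close.

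Tight junction genes had 3 of 14 past 1.5-fold higher and 0 lower, with a median of 0.23. Those were Ocln, occludin (0.61, 0.48 to 0.73), Marveld2, tricellulin (0.73, 0.19 to 1.27), and the scaffold gene Tjp3 (1.20, 0.70 to 1.70). Cldn4, a claudin gene, went from 1 to 563 counts in the control line and from 1 to 152 in the fusion line, and at 24 h was 3.02-fold (2.52 to 3.63) lower in the fusion line. These 3 kept more of their transcripts after TGFβ in the fusion line, while Cldn4 gained less. Of 20 apicobasal polarity genes 3 were past 1.5-fold higher and 0 lower, namely Crb3 (1.33, 0.90 to 1.77), Ezr, ezrin (0.78, 0.74 to 0.83), and Dlg3 (0.89, 0.21 to 1.58), around a median of 0.034. In the desmosome list the plakin gene Ppl (1.04, 0.96 to 1.11) and Lmo7 (0.86, 0.79 to 0.93) were lower after TGFβ and less so in the fusion line. Pkp1, plakophilin 1 (-0.77, -0.91 to -0.63), and Evpl, envoplakin (-1.18, -2.04 to -0.33), were higher and less so in the fusion line, and Dsg2, desmoglein 2 (0.80, 0.61 to 1.001), averaged under 1.5-fold. In all, 3 of 16 were past 1.5-fold higher and 2 lower, with a median of -0.16.

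Keratin genes varied by member. Krt19 stood at 1565 CPM at 0 h and 82.7 at 24 h in the control line, and at 1648 and 270.0 in the fusion line, a weaker response (1.63, 1.57 to 1.69). Krt18 (0.12) and Vim, vimentin (0.14), averaged under 1.5-fold, Vim at between 3156 and 3695 CPM across the libraries. Over 13 genes of intermediate filaments 1 was past 1.5-fold higher and 2 lower, Krt7 and Synm, with a median of -0.066. Of 7 epithelial membrane proteases and mucins 3 were past 1.5-fold higher and 0 lower, with a median of 0.47, or 0.13 with no filter on low counts: Cdh1, which the list also holds, Muc1 (0.60, 0.22 to 0.97) and Rab17 (0.84, 0.53 to 1.15). Of 7 connexin and pannexin genes 1, Gjb1 (527 and 3 against 566 and 12 counts), was past 1.5-fold higher and 0 lower, with a median of -0.25. Epcam had 18 and 11 counts in the control line and 4 and 4 in the fusion line, below the 1 CPM rule.

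Matrix genes ranged from clearly weaker to equal responses. Fn1 (chr1:71585520-71653200) went from 106 to 1334 CPM in the control line and from 78.1 to 795 CPM in the fusion line, and its difference of -0.30 (-0.37 to -0.24) was close. Col5a1, a fibrillar collagen gene, was close too (0.28, 0.023 to 0.54), whereas Col5a3, Col1a1 and Col27a1 (-0.69, -0.80 to -0.57) were weaker. Over 15 collagen genes 3 were past 1.5-fold lower and 2 higher, with a median of -0.32. The 2 higher were Col6a1 and Col6a2, chains of collagen VI: Col6a1 went from 227 to 199.8 CPM in the control line and from 172 to 280.0 CPM in the fusion line, a difference of 0.88 (0.82 to 0.94), and Col6a2 from 83.4 to 47.4 CPM in the control line and from 45.96 to 61.9 CPM in the fusion line, a difference of 1.24 (1.13 to 1.36).

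Among 18 fibronectin and matricellular genes 3 were past 1.5-fold lower and 3 higher, with a median of -0.058. The lower ones were Ccn2, Thbs1 and the tenascin gene Tnc, and the higher ones the basement membrane gene Nid2 at 0.96 (0.17 to 1.74), Tnxb at 0.96 (0.65 to 1.28) and the fibulin gene Efemp1 at 1.73 (0.94 to 2.53). The 3 lower ones were higher after TGFβ and the 3 higher ones were lower after it, so all 6 were weaker responses. Of 13 lysyl oxidase and elastic fibre genes 2 were past 1.5-fold lower and 0 higher, Emilin1 (-1.84, -3.25 to -0.42) and the collagen lysyl hydroxylase gene Plod2 (-0.59, -0.70 to -0.48), with a median of -0.14. Loxl2 was close (-0.38). Of 18 proteoglycan and hyaluronan genes 3 were lower and 0 higher, with a median of -0.29, led by Has2 and by Cemip, a hyaluronan-degrading protein (-1.0996, -1.31 to -0.89), with Hmmr, a hyaluronan receptor gene that was lower after TGFβ and more so in the fusion line (-0.60, -0.71 to -0.49). Vcan, versican (0.30), and Gpc1, glypican 1 (0.052), were close.

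Integrin and laminin genes differed little, with 1 of 18 past 1.5-fold lower (Itga5), 0 higher and a median of -0.0076, and 9 of 12 responders were close. Of 23 matrix protease and inhibitor genes 4 were past 1.5-fold lower and 4 higher, with a median of -0.13. The aggrecanase gene Adamts4 (-1.32, -1.78 to -0.86) and Adam12 (-0.77, -1.11 to -0.43) were weaker upward responses. The collagenase gene Mmp13 (1.12, 0.83 to 1.41) and Mmp28 (0.59, 0.41 to 0.76) were weaker downward ones. Mmp9 had 1 and 194 counts in the control line and 1 and 48 in the fusion line, 3.29-fold (2.39 to 4.61) lower at 24 h in the fusion line.

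The cytoskeleton responded nearly alike. Of 27 actin and contractile genes 15 of 21 responders were close, 3 were past 1.5-fold lower and 2 higher, and the median difference was -0.20. Palld, palladin (-0.62, -0.86 to -0.39), and the actin gene Actg1 (-0.98, -1.40 to -0.56) were weaker upward responses, and Mylk, myosin light chain kinase (0.72, 0.55 to 0.90), and Lima1 (0.74, 0.66 to 0.83) weaker downward ones. Of 21 YAP and TAZ targets 3 were past 1.5-fold lower and 0 higher, with a median of -0.039: Ccn2, the ectonucleotidase gene Nt5e (-0.75, -1.07 to -0.42) and Foxf2 (-0.69, -0.85 to -0.53). Among the 14 responders of that list 6 were close (42.9%) and 3 weaker (21.4%), against 53.4% and 15.4% of all responding genes. Ankrd1, another target of the same pathway, went from 234 to 669 CPM in the control line and from 197 to 677 CPM in the fusion line and was close (0.27, 0.22 to 0.31).

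Of the growth factor and cytokine genes that were higher after TGFβ, several were less so in the fusion line. Vegfa, the angiogenic factor gene, went from 49.96 to 209 CPM in the control line and from 56.0 to 103 CPM in the fusion line, a difference of -1.18 (-1.28 to -1.08). Pdgfb went from 40.0 to 224 CPM in the control line and from 36.1 to 116 CPM in the fusion line, a difference of -0.80 (-0.91 to -0.69). Pdgfrb, a receptor gene, had 0 and 217 counts in the control line and 1 and 36 in the fusion line, 4.91-fold (3.44 to 7.19) lower at 24 h in the fusion line. Of 13 PDGF and VEGF genes these 3 were past 1.5-fold lower and 0 higher, with a median of -0.25. Of 13 IL-6 family genes 3 were lower, namely Il11, Lif and the feedback gene Socs1 at -1.06 (-1.92 to -0.21), and 1 was higher, with a median of 0.13. The receptor gene Il6st averaged under 1.5-fold (0.25) and Stat3 was close (-0.22).

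In the Notch list the ligand gene Jag1 went from 126 to 1165 CPM in the control line and from 123 to 634 CPM in the fusion line, a difference of -0.85 (-0.91 to -0.79). Dll1 (-1.21, -1.46 to -0.96), Notch2 (-0.66, -0.72 to -0.61) and Notch4 (-0.65, -1.23 to -0.075) were weaker upward responses too, and Notch1, from 92.5 to 8.69 CPM in the control line and from 96.8 to 19.4 CPM in the fusion line, a weaker downward one (1.09, 0.89 to 1.28). These 5 receptors and ligands thus had weaker responses in the fusion line in either direction. Of 14 members 4 were past 1.5-fold lower and 2 higher around a median of -0.12, and 5 of 8 responders were weaker (62.5%). In the Wnt list 2 of 19 were lower and 2 higher, with a median of -0.0072. The ligand genes Wnt9a and Wnt7a, the latter at -0.83 (-1.44 to -0.21), were less raised in the fusion line, and Wnt4, at 1.07 (0.72 to 1.41), and Rnf43, which removes Wnt receptors, at 0.65 (0.33 to 0.98), were less lowered. Of 15 EGF family genes 2 were lower and 2 higher, with a median of 0.25: Lrig3 (-0.96, -1.39 to -0.54) and Hbegf (-0.62, -0.75 to -0.50) against the receptor gene Erbb3 (0.71, 0.46 to 0.96) and the ligand gene Btc (0.79, 0.50 to 1.07).

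FGF and ERK feedback genes had 4 of 20 past 1.5-fold lower and 2 higher, with a median of 0.049. Fgf2, a ligand gene, had 5 and 260 counts in the control line and 7 and 71 in the fusion line, a difference of -2.01 (-3.47 to -0.56). Fgfr1 (-0.82, -1.39 to -0.25) was a weaker upward response and Spry1, an inhibitor of ERK signalling (0.86, 0.49 to 1.24), a weaker downward one. Axon guidance genes had 8 of 26 past 1.5-fold higher, 0 lower and a median of 0.26. The semaphorin genes Sema3c, from 785 to 125 CPM in the control line and from 759 to 288 CPM in the fusion line, and Sema3e, from 117 to 16.3 CPM in the control line and from 109 to 50.9 CPM in the fusion line, and the ephrin receptor gene Epha4, from 184 to 65.2 CPM in the control line and from 167 to 133 CPM in the fusion line, were lower after TGFβ and less so in the fusion line, with differences of 1.26 (1.20 to 1.31), 1.74 (1.60 to 1.88) and 1.17 (1.08 to 1.248).

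NF-κB targets and chemokines had a median difference of 0.58, or 0.27 with no filter on low counts, from median responses of -0.24 in the control line, 0.016 in the fusion line. It was the highest list median as plotted, but not with no filter, at 5 CPM, with a prior count of 0.5 or without mitochondrial genes. Of 29 measured genes 13 were past 1.5-fold higher and 0 lower, and of 18 responders 12 were weaker (66.7%), 3 close, 1 stronger and 2 undecided. Cxcl5, a neutrophil chemokine gene, stood at 1418 CPM at 0 h and 256 at 24 h in the control line, and at 1192 and 557 in the fusion line, a difference of 1.37 (1.34 to 1.41). Il33, an alarmin gene, went from 84.5 to 19.7 CPM in the control line and from 65.9 to 62.0 CPM in the fusion line, a difference of 2.01 (1.88 to 2.15). Vcam1, a leukocyte adhesion gene, stood at 411 CPM at 0 h and 103 at 24 h in the control line, and at 646 and 335 in the fusion line, a difference of 1.05 (0.99 to 1.11). After TGFβ each was higher in the fusion line, and Il33 stood near its starting level there.

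Other weaker responses in this list were Ccl20 (1.24, 1.04 to 1.45), Cxcl1 (1.02, 0.94 to 1.09), Cx3cl1 (0.95, 0.80 to 1.11), Icam1 (0.91, 0.50 to 1.33) and Tnfaip2 (1.496, 1.34 to 1.65). Csf3, the gene of granulocyte colony-stimulating factor, had 225 and 5 counts against 25 and 4, so the lines were apart at 0 h and alike at 24 h. Lcn2 and Saa3, acute-phase genes, also started lower in the fusion line, at 273 against 50.3 CPM and 76.3 against 22.6 CPM, and their differences were 0.69 (0.51 to 0.87) and 0.91 (0.60 to 1.22). The chemokine gene Ccl7 was higher after TGFβ and more so in the fusion line (0.59, 0.47 to 0.71). The NF-κB subunit genes Nfkb1 (-0.15), Nfkb2 (-0.18), Rela (-0.13) and Relb (0.014) averaged under 1.5-fold, and the inhibitor gene Tnfaip3 (-0.075) was close. Immune markers summed to at most 6.01 CPM, of which Cd68 was the gene above 1 CPM (0.16). In the interferon and antigen presentation list 3 of 26 were past 1.5-fold higher and 0 lower, with a median of 0.22. They were AW112010 (2.48, 1.956 to 3.01) and the GTPase genes Gbp2 (0.99, 0.63 to 1.34) and Igtp (1.01, 0.18 to 1.85), while B2m (-0.041) and Irf1 (-0.030) were close.

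Detoxification enzymes were lower after TGFβ in both lines at the median, and many of them less so in the fusion line. Over 32 measured genes the median responses were -1.47 in the control line, -1.01 in the fusion line, the median difference was 0.24, and 11 were past 1.5-fold higher and 0 lower. Of 25 responders 11 were weaker (44.0%), 6 close, 8 undecided and 0 stronger. Besides Akr1c19 and Cyp2s1 they included the aldehyde dehydrogenase gene Aldh3a1, from 170.3 to 3.06 CPM in the control line and from 184 to 10.6 CPM in the fusion line (1.66, 1.36 to 1.95). Gsta4, a glutathione transferase gene, stood at 551 CPM at 0 h and 20.8 at 24 h in the control line, and at 653 and 59.5 in the fusion line (1.27, 1.15 to 1.39). Gclc, the catalytic subunit of glutathione synthesis (0.67, 0.60 to 0.73), and Ephx1, epoxide hydrolase (0.80, 0.73 to 0.86), were weaker as well. Other NRF2 targets did not share this: Hmox1 (-0.16), Srxn1 (-0.29), Gclm (-0.19) and Txnrd1 (-0.16) averaged under 1.5-fold.

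The list of secreted liver-type proteins had the lowest median responses of all lists, -3.95 in the control line, -3.17 in the fusion line. Of 12 measured genes 4 were past 1.5-fold higher and 0 lower, and the median difference was 0.50, or 0.56 with counts of 0 set to 3 and 0.23 with no filter on low counts. Its share of weaker responses, 33.3%, was below that of all genes lower by 4 to 8-fold (45.1%) or more (50.9%), and its median signed by the direction of the response, -0.50, was smaller in size than theirs, -0.64 and -1.01. Complement gene C3 went from 202 to 12.1 CPM in the control line and from 267 to 29.5 CPM in the fusion line, a difference of 0.88 (0.72 to 1.04), and Cfb, Serpina1b and C4bp had 1.01 (0.072 to 1.94), 1.35 (0.10 to 2.61) and 0.80 (0.39 to 1.21). Ttr, the transthyretin gene, had 2 counts in the treated control library and 0 in the treated fusion library, and Ambp 3 and 0. Apob was higher after TGFβ in both lines and close (-0.25, -0.29 to -0.22).

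**Figure D4:**
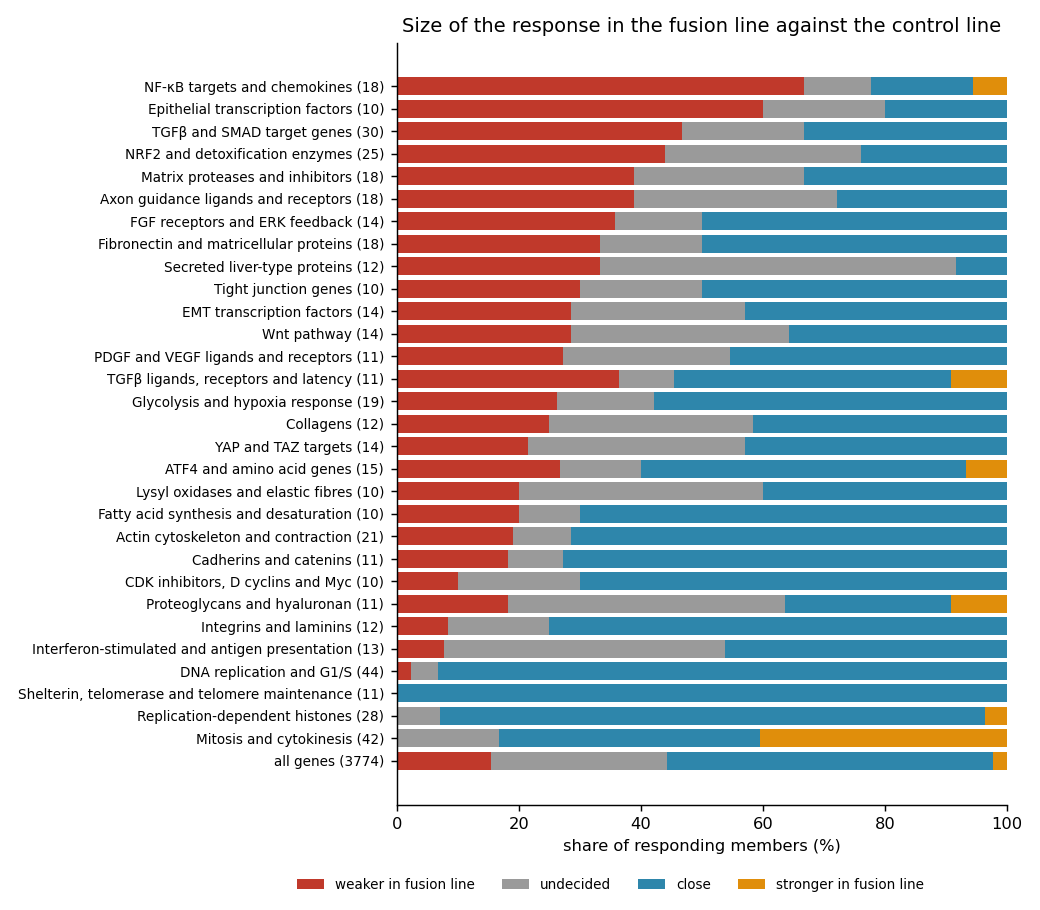
Share of the responding members of each list (number in brackets, lists with at least 10) whose response in the fusion line was weaker, undecided, close or stronger. All responding genes are the lowest bar, with 15.4% weaker and 2.28% stronger. NF-κB targets have 66.7% weaker and mitosis genes 40.5% stronger.

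Among the lists, mitosis genes were where the fusion line responded more. All 42 measured mitosis genes were lower after TGFβ in both lines, with median responses of -1.05 in the control line, -1.55 in the fusion line and a median difference of -0.54. Of the 42, 17 were stronger responses (40.5%, against 2.28% of all responding genes), 18 close, 7 undecided and 0 weaker, and 41 had a negative difference. The log2 response of the fusion line was 150% of that of the control line at the median. Over all genes lower by at least 1.5-fold on average it was 85.4%, and 2.83% of them were stronger. Mki67, the proliferation marker, stood at 826 CPM at 0 h and 348 at 24 h in the control line, and at 831 and 223 in the fusion line, a difference of -0.65 (-0.70 to -0.61). Cenpa, the centromeric histone variant gene, went from 64.2 to 47.9 CPM in the control line and from 64.8 to 21.9 CPM in the fusion line, a difference of -1.14 (-1.28 to -0.999). The untreated libraries nearly matched, and the treated fusion library was the lowest of the 4 for both genes.

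The stronger responses covered kinetochore, spindle and mitotic entry genes. Cenpe (-0.79, -0.88 to -0.70), Cenpf (-0.76, -0.84 to -0.68) and Bub1b (-0.71, -0.79 to -0.62) belong to the kinetochore. Plk1, the mitotic kinase gene, went from 68.3 to 34.7 CPM in the control line and from 59.8 to 17.7 CPM in the fusion line (-0.78, -0.93 to -0.62), and Cdc20, an activator of the anaphase-promoting complex, from 119 to 53.4 CPM in the control line and from 102 to 27.3 CPM in the fusion line (-0.74, -0.87 to -0.62). Cdc25c, which activates CDK1 (-0.88, -1.14 to -0.61), the cyclin gene Ccnb1 (-0.60, -0.77 to -0.43) and the kinesin gene Kif2c (-0.79, -0.94 to -0.65) were stronger as well. Close members included Cdk1 (-0.36, -0.45 to -0.27), Aurkb (-0.29, -0.44 to -0.14), Anln, anillin (-0.019, -0.083 to 0.045), and the kinetochore genes Cenph (0.016, -0.28 to 0.31) and Cenpk (-0.018, -0.30 to 0.26).

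Replication genes responded almost equally in the lines. All 44 measured genes of DNA replication and G1/S were lower after TGFβ, with median responses of -1.54 in the control line, -1.66 in the fusion line and a median difference of -0.075. Of the 44, 41 were close (93.2%), 1 weaker and 2 undecided. Cdc6, which loads the replicative helicase, went from 59.4 to 8.69 CPM in the control line and from 51.1 to 9.05 CPM in the fusion line (0.27, 0.042 to 0.51). Mcm10 (-0.31, -0.48 to -0.14), the polymerase gene Pole (-0.29, -0.40 to -0.17) and Rfc3 (0.21, 0.055 to 0.37) were close as well. The weaker one was E2f2, at 18.6 CPM at 0 h and 0.831 at 24 h in the control line, and at 17.0 and 1.66 in the fusion line (1.09, 0.48 to 1.70). Of 28 replication-dependent histone genes, whose transcripts accumulate in S phase, 25 were close, 1 stronger, Hist1h3c at -0.75 (-0.96 to -0.54), and 2 undecided, with a median difference of -0.11. Histone genes have near-identical copies between which reads can be split or lost, so their levels are uncertain. Whether the lists differ from each other was not tested.

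**Figure D5:**
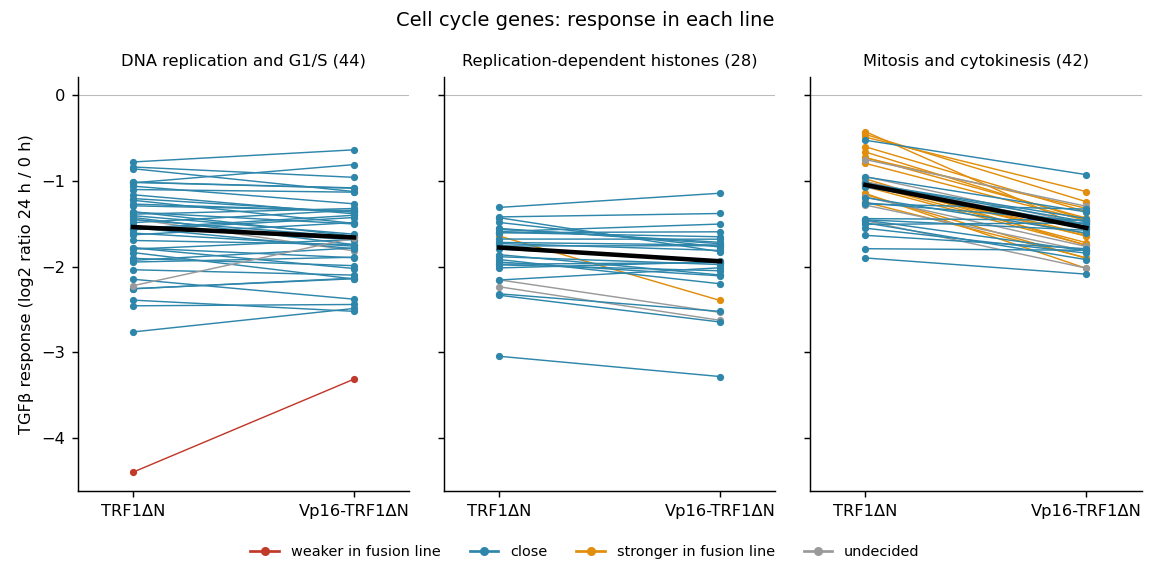
TGFβ response (log2 ratio of 24 h to 0 h) of each gene in the TRF1ΔN line (left end of a line) and in the Vp16-TRF1ΔN line (right end), for 44 replication, 28 histone and 42 mitosis genes. Colours give the class and black lines join the medians. Replication genes run level, from -1.54 to -1.66 at the median, and mitosis genes slope down, from -1.05 to -1.55.

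Regulators around the cycle differed little between the lines, but averages were under 1.5-fold in 13 of 23, and in 21 of 29 p53 targets. Of 23 CDK inhibitors, D cyclins and Myc family genes 1, Cdk6, whose kinase partners D cyclins (0.69, 0.63 to 0.74), was past 1.5-fold higher and 0 lower, with a median of 0.096, and Myc (-0.16 and 0.061 in the lines) and Cdkn1a, p21 (-0.61 and -0.51), averaged under 1.5-fold. Of 29 p53 targets 1 was lower and 1 higher, with a median of 0.065: the stress gene Gadd45a, from 7.43 to 155 CPM in the control line and from 8.47 to 83.7 CPM in the fusion line (-1.08, -1.295 to -0.86), and Ephx1.

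Telomere genes differed little between the lines, and 25 of the 36 measured averaged under 1.5-fold after TGFβ. Of 36 measured shelterin, telomerase and telomere maintenance genes 0 were past 1.5-fold in either direction, all 11 responders were close, and the median was -0.045, with values from -0.50 for Zbtb48, a telomere-binding zinc finger gene, to 0.24 for the helicase gene Wrn. Mouse Terf1, the endogenous gene of TRF1 (chr1:15805646-15844052), went from 18.95 to 14.5 CPM in the control line and from 19.7 to 13.9 CPM in the fusion line (-0.11, -0.33 to 0.11), Terf2 had 0.11 (-0.078 to 0.29) and Tert -0.28 (-0.97 to 0.42). By position, the 131 genes within 1 Mb of a distal chromosome end had a median difference of 0.011, with 5 past 1.5-fold higher (3.82%) and 1 lower (0.763%), and the 9474 genes more than 20 Mb away had 4.60% and 2.86%. The 1 lower gene was Itga5, and Bicd1, a dynein adaptor gene 20.3 kb from the last annotated base of its chromosome, went from 40.1 to 14.7 CPM in the control line and from 44.5 to 32.3 CPM in the fusion line (0.98, 0.82 to 1.15). The rows analysed are genes, so RNA of the telomeric repeats was not analysed here.

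Chromatin lists differed in single members. Averages were under 1.5-fold in 23 of 30 Polycomb, 17 of 23 DNA and H3K9 methylation and 4 of 10 imprinted genes. Of 30 Polycomb and H3K27 demethylase genes 1 was past 1.5-fold lower, the demethylase gene Kdm6b, from 12.9 to 43.3 CPM in the control line and from 14.8 to 26.8 CPM in the fusion line (-0.89, -1.09 to -0.70), and 0 higher, with a median of 0.015. Of 23 genes in the list of DNA and H3K9 methylation 1 was lower and 0 higher, with a median of -0.068. The lower one was Kmt5c (-0.64, -0.87 to -0.41), whose enzyme methylates histone H4 and not DNA or H3K9. Of 10 imprinted genes 3 were higher and 0 lower, with a median of 0.10: Dio3, Phlda2 (1.38, 0.036 to 2.73) and the transporter gene Slc22a18 (0.89, 0.54 to 1.23).

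Metabolic lists had small median differences, but many of their genes hardly responded. Averages were under 1.5-fold in 17 of 25 cholesterol, 14 of 24 fatty acid, 17 of 25 sphingolipid and 10 of 29 glycolysis and hypoxia genes. Among responders of these lists the log2 response of the fusion line was, at the median, 110%, 73.0%, 72.8% and 74.9% of the control line's. Over all responding genes it was 85.8%. Of 25 cholesterol synthesis genes 0 were past 1.5-fold either way (median -0.095), from -0.77 for Idi1 to 0.24 for Dhcr7. Of 24 fatty acid genes 3 were higher and 0 lower (median 0.095): Agpat2 (0.60, 0.45 to 0.75), Dgat2, a triglyceride synthesis gene (0.69, 0.47 to 0.90), and Acss2 (1.04, 0.65 to 1.42). Of 25 sphingolipid genes 1, Sptssb, was higher and 0 lower (median 0.12). Of 29 glycolysis and hypoxia genes 3 were lower and 4 higher, with a median of 0.13. Pfkfb4, a regulator of glycolytic flux, went from 4.16 to 61.5 CPM in the control line and from 2.67 to 18.1 CPM in the fusion line (-1.13, -1.48 to -0.78), and Vegfa and Ndrg1 (-0.61, -0.67 to -0.55) were lower with it. Egln3, a prolyl hydroxylase of the hypoxia pathway, went from 69.6 to 5.08 CPM in the control line and from 70.4 to 18.4 CPM in the fusion line (1.83, 1.60 to 2.06), while the hexokinase gene Hk2 was close (-0.46, -0.56 to -0.35).

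Of 27 ATF4 and amino acid genes 3 were past 1.5-fold lower and 2 higher, with a median of -0.012. Trib3 (-1.15, -1.57 to -0.73), Chac1 (-0.84, -1.21 to -0.46) and Ddit4, an inhibitor of mTORC1 (-0.76, -0.86 to -0.66), were weaker upward responses. Gdf15 (1.17, 0.65 to 1.69) was a weaker downward one and Cbs, which makes cystathionine (0.78, 0.55 to 1.02), a stronger upward one. Of these 5, 4 were thus weaker responses in the fusion line. Of 23 unfolded protein response genes 22 averaged under 1.5-fold after TGFβ. The difference was past 1.5-fold in 0 of the 23 (median -0.13), from -0.37 for Xbp1 to 0.46 for Herpud1. Of 19 clock genes 1 was lower, Bhlhe40, and 1 higher, with a median of -0.055.

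Mitochondrial and translation genes differed little between the lines, but most of them hardly responded. Averages were under 1.5-fold in 6 of 9 mitochondrially encoded, 45 of 48 nuclear respiratory chain, 27 of 35 ribosome biogenesis and 55 of 55 ribosomal protein genes. Of 9 mitochondrially encoded genes, with median responses of 0.51 in the control line, 0.54 in the fusion line, 0 had a difference past 1.5-fold (median -0.0061), the lowest being mt-Nd6 (-0.41, -0.67 to -0.15) and the highest the ribosomal RNA mt-Rnr1 (0.15, 0.14 to 0.15). None of 48 nuclear respiratory chain genes was past 1.5-fold (median 0.0016, range -0.26 for Cycs to 0.44 for Cox7c), and 0 of 35 ribosome biogenesis genes were (median -0.054). Of 55 cytoplasmic ribosomal protein genes 2 were lower, among them Rps6 (-0.87, -1.64 to -0.095) at 0.759 to 2.14 CPM, and 0 higher, with a median of -0.081. Rps6 has processed copies elsewhere in the genome, as has Actg1, so their counts are uncertain. Markers of cell types gave medians of 0.26 over 7 luminal, -0.17 over 3 basal and -0.76 over 3 fibroblast genes. The 2 endothelial genes, Flt1 and Egfl7, had 0.23 and 0.48, and the adipocyte gene, Pparg, had 0.47.

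Some genes with a strong response were close to equal in the lines. Among those higher after TGFβ, Lgr6, a receptor for R-spondins, went from 2.71 to 214 CPM in the control line and from 2.18 to 156 CPM in the fusion line, with log2 responses of 6.28 and 6.13 (-0.15, -0.54 to 0.23). Timp3, a metalloproteinase inhibitor gene, stood lower in the fusion line at both times, at 9.07 CPM at 0 h and 248 at 24 h in the control line, and at 2.71 and 84.1 in the fusion line, yet with a difference of 0.16 (-0.14 to 0.46). Ccn4 (-0.38, -0.45 to -0.31), Pla2g16 (-0.17, -0.39 to 0.050), Rasl12 (-0.085, -0.32 to 0.15), Rab11fip5 (-0.058, -0.26 to 0.14), Map2 (0.18, 0.022 to 0.34) and Slc24a3 (-0.18, -0.55 to 0.18) completed the 10 largest close responses upward, with Fn1 and Col5a1. Downward they were Hist1h1a (-0.24, -0.36 to -0.11), Fgf1 (0.37, 0.17 to 0.58), the anion transporter genes Slco4a1 (0.063, -0.18 to 0.31) and Slco2a1 (-0.32, -0.49 to -0.15), the proprotein convertase gene Pcsk6 (0.025, -0.25 to 0.30), Cdc6, Hist1h2bl (-0.10, -0.31 to 0.11), Shmt1 (0.17, 0.0094 to 0.32), Entpd5 (0.14, -0.038 to 0.32) and Hist1h1b (-0.31, -0.40 to -0.23). Each of these 20 genes was over 4-fold away from its untreated level in both lines, and Pcsk6, for example, went from 41.4 to 6.03 CPM in the control line and from 43.8 to 6.51 CPM in the fusion line.

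A few genes went opposite ways in the lines. Counting intervals lay on opposite sides of 1 in 187 genes (1.59% of those measured), nearly all by small ratios: in 13 the difference of responses was past 2-fold, and in 5 both ratios reached 1.5-fold (Adamts1, Lpin3, Inhbb, Hey1 and the small nucleolar RNA gene Snord13). Adamts1, a matrix protease gene, went from 27.7 to 15.8 CPM in the control line and from 29.7 to 48.0 CPM in the fusion line, a difference of 1.49 (1.32 to 1.67). Hey1, a target of Notch and BMP signals, went from 4.14 to 2.61 CPM in the control line and from 3.06 to 5.84 CPM in the fusion line, and Bmp2 from 3.82 to 2.40 CPM in the control line and from 5.48 to 7.003 CPM in the fusion line, with differences of 1.57 (1.11 to 2.03) and 1.01 (0.58 to 1.45). Lpin3, a phosphatidate phosphatase gene, went from 4.34 to 8.55 CPM in the control line and from 4.85 to 2.19 CPM in the fusion line, a difference of -2.10 (-2.55 to -1.65). Dusp4, which inactivates ERK, went from 50.5 to 86.4 CPM in the control line and from 53.2 to 40.8 CPM in the fusion line, a difference of -1.16 (-1.28 to -1.03). For Adamts1, Hey1, Bmp2 and Inhbb the treated fusion library was above and the treated control library below its untreated one, and for Lpin3 and Dusp4 the reverse.

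How far single-library differences can be read depends on expression. Spread over genes was taken from those with an average response under 0.25 on the log2 scale. The standard deviation of their difference was 0.45 at 1 to 5 CPM (447 genes), 0.20 at 5 to 50 CPM (2137 genes) and 0.14 above 50 CPM (1943 genes). The middle 95% of their differences ran from -0.84 to 0.86, from -0.38 to 0.41 and from -0.26 to 0.29. The median half-width of the 95% counting interval, in all genes, was 0.67, 0.20 and 0.091. The counting interval was thus narrower than this spread at each level. The share of genes past 2-fold was 9.05%, 2.07% and 1.12% at these levels. Spread between cultures of 1 line was not measured.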

How the data were processed

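RNA of NMuMG lines with TRF1ΔN or Vp16-TRF1ΔN was sequenced before and after 24 h of TGFβ, in 1 library per group. The authors' deposited counts per gene were made, per the submitters' processing notes, with FastQC, STAR, HTSeq and DESeq2 and the mouse build mm10; which annotation release and which strand option were used is not given in the sources used here, so reads of overlapping and antisense genes cannot be told apart. The authors' deposited log2 values matched log2 of the count divided by DESeq2's size factor, plus 1, within 0.0151%, and served as an alternative.

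Counts of 21971 genes, without 4 construct rows, were scaled by TMM (edgeR 4.0.16, R 4.3.3) and turned into log2 ratios with a prior count of 2. Depth was 35423556 to 46001039 counts, and 3 counts, the floor for a count of 0, were 0.0630 to 0.0875 CPM. The 95% interval of a difference rests on Poisson variances and that of a ratio is exact (Clopper-Pearson). No test was run, since each group had 1 library. Scripts were tested on simulated data. Positions and symbols are from GENCODE M21.

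Named were the 15 highest and lowest differences at 5 CPM or more, leaving out predicted and small RNA genes, up to 3 members at each end of each list, the 10 largest close responses each way, and Terf1, Cdh1, Cdh2, Vim, Fn1, Snai1, Snai2, Zeb1, Zeb2, Smad7, Id1, Has2, Il11 and Epcam whatever their values. A few genes picked this way are not reported here. Other genes were named after their values were seen. The genes, the 59 lists (1125 of 1429 members measured, 50 in more than 1 list) and the thresholds were chosen with earlier results of these data known. Alternatives were other scalings, filters, prior counts and thresholds.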

Additional observations from a re-analysis of the deposited data

Results flagged for a closer look

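In 13 genes the lines went opposite ways after TGFβ with a difference of responses past 2-fold, and the difference between the lines was not tested. On the log2 scale it was 1.49 for Adamts1, 1.01 for Bmp2, 1.24 for Col6a2, 1.57 for Hey1, 1.65 for Inhbb and 1.003 for Rnd1, a small GTPase gene, all lower after TGFβ in the control line and higher in the fusion line. It was -1.16 for Dusp4, -2.10 for Lpin3 and -1.05 for the kinesin gene Kif5c, all higher after TGFβ in the control line and lower in the fusion line. In the same direction, 4 rows of small RNA, predicted genes or pseudogenes were found, Rny3 at -1.64, Snord13 at -1.65, Rpl3-ps1 at -1.26 and Gm25117 at -1.22.

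The TRF1DN construct row, which no comparison of genes used, had a difference of responses of -1.55. Its counts were 1863 and 7798 in the control line and 123 and 159 in the fusion line, while the row Vec_part2 had a difference of -0.33. What stretch of the construct each row covers is not described in the sources used here.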

How the results depend on the processing

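The numbers of genes moved with the filter and thresholds and hardly with the scaling. The 213 genes with a higher ratio in the fusion line became 119 at a mean of at least 5 CPM, 320 with no filter and 529 at 1.5-fold, and the 109 with a lower ratio became 46, 274 and 344. With DESeq2's size factors the counts were 212 and 111, with library totals alone 216 and 105, with a prior count of 0.5 they were 225 and 111, with the deposited log2 values 217 and 109, and without mitochondrial genes 231 and 103. Close responses numbered 793, not 2017, among genes averaging 2-fold, and stronger ones 54 there and 51 at 5 CPM, not 86. Weaker ones ranged from 408 to 682. The relative size of the response stayed between 83.9% and 86.7% for genes higher after TGFβ and between 83.8% and 88.4% for lower ones. No sign changed among the genes named as highest or lowest differences at 5 CPM or more, as largest close responses, or whatever their values. Epcam, below the filter, was not checked. Genes named only from the lists or after their values were seen were not checked either. Medians of 12 of 56 lists changed sign, all of them under 0.25 in size, and the 12 lists at or above it kept their sign. Without a filter, medians fell from 0.58 to 0.27 for NF-κB targets, from 0.50 to 0.23 for liver-type proteins, from 0.47 to 0.13 for membrane proteases and mucins and from 0.48 to 0.30 for epithelial factors, and went from -0.25 to 0.012 for PDGF and VEGF genes. At 5 CPM the connexin median was -0.092, not -0.25. Liver-type proteins had the highest median with a prior count of 0.5 (0.582, with NF-κB targets at 0.576) and at 5 CPM (0.67), and epithelial factors with no filter and without mitochondrial genes. Leaving out a library was not possible, as it ends the comparison. No paired analysis was possible because each group had 1 library.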

Other observations

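In 13 of the genes past 2-fold the lines were apart before TGFβ and not at 24 h. Csf3, the gene of granulocyte colony-stimulating factor, stood at 225 and 5 counts in the control line and 25 and 4 in the fusion line. Adamts9, a matrix protease gene, had 150 and 13 counts against 27 and 6, and Clca3b, of the calcium-activated chloride channel regulator family, 767 and 101 against 326 and 78. All 3 were lower before treatment in the fusion line and near their lowest level in both lines after it. Ramp1, a receptor accessory protein gene, had 49 and 245 against 21 and 211 counts, so it started lower in the fusion line and ended near the control line. The carboxypeptidase subunit gene Cpn1 started higher there, at 64 and 37 against 157 and 17 counts, a difference of -2.18 (-3.07 to -1.28). Adra1b, an adrenergic receptor gene, started higher as well and ended lower, at 34 and 222 against 65 and 100 counts.

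Wfdc2, a secreted epithelial protein gene, differed at both times, with 702 and 137 counts in the control line and 30 and 10 in the fusion line, and its difference of responses was 1.03 (0.029 to 2.03). For this gene the fusion line was lower at each time although its ratio was the higher one.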
